A study of Mus musculus with 18 samples.

Results

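The 10 genes described here are the gene of the tumour suppressor p53 (Trp53) and listed genes of the p53 pathway. Cdkn1a, Btg2, Psrc1, Phlda3 and Zmat3 are grouped here under cell cycle arrest, although their products are unlike. Mdm2, Mdm4, Ccng1 and Ppm1d restrain p53 itself. The 10 genes were taken by symbol from the 54532 Ensembl genes of the deposited count table. All 10 were found once, and all 10 passed the filter on low counts that left 16257 genes for testing. The tissue was whole jejunum, the middle stretch of the small intestine, from C57BL/6 mice of a common inbred background that were 8 to 12 weeks old. The FLASH group (7 libraries) received a single 15 Gy dose to the whole abdomen at an ultra-high dose rate, and tissue was taken 16 h later. The CONV group (5 libraries) received the same dose at a conventional rate and was sampled at the same time, and the control group (6 libraries) was not irradiated. The labels name no transgene and no drug in any group and do not give the sex. Whether every library stands for a separate animal is not stated, and p-values refer to the spread among libraries, part of which may be technical.

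In an unstressed cell, p53 protein is made and quickly destroyed, because the ubiquitin ligase MDM2 binds it and marks it for the proteasome, helped by its relative MDM4. DNA breaks activate the kinases ATM and ATR, which free p53 from this control, so that p53 activity is set mainly at the protein level and Trp53 mRNA is a poor guide to it. Active p53 binds DNA as a tetramer and switches on CDKN1A (p21), which blocks cyclin-dependent kinases, together with Mdm2, Ccng1 and Ppm1d, which feed back to switch p53 off again. In the irradiated small intestine this response is known for arrest and death of cycling crypt cells.

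Total estimated counts per library ran from 23079695 to 30196611 in FLASH, from 19936095 to 26990095 in CONV and from 24342285 to 27765544 in controls. Levels are given as CPM, a count relative to the total of its library, after scaling with 1 TMM factor per library. That factor was 0.826 to 0.948 in FLASH, 0.844 to 1.11 in CONV and 1.06 to 1.25 in controls, so the scaling differed with the groups. The rounded counts behind a member's value ran from 67 in a single library for Psrc1 to 26707 for Ccng1, so the members were measured well above the detection limit in every group. Libraries differed in how expression depended on transcript length. The slope of log2 CPM on log2 length averaged 0.036 ± 0.20 in FLASH, -0.18 ± 0.21 in CONV and 0.11 ± 0.28 in controls (SD). FLASH 1, CONV 6 and control 6 had the lowest slopes of their groups (-0.34, -0.43 and -0.41). Every listed marker of crypt base stem cells, absorptive enterocytes, Paneth cells, goblet cells, smooth muscle, fibroblasts, endothelium, T cells, B and plasma cells and macrophages had counts in each group. Of 6 exocrine pancreas markers, Cpa1, Pnlip and Try4 were at 0 counts in every group.

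The following promoter stretches are shown because p53 recognises DNA directly and most members rose after irradiation. Trp53, which fell in FLASH, is shown because its window also held a match. They are written 5′ to 3′ on the strand of the gene and come from RefSeq (GRCm38.p6, the mm10 build) windows that run from 250 bases before to 50 bases after an annotated start. Windows were present for 9 members, 12 in all, and not for Zmat3. Capitals mark each exact match to the p53 half-site consensus, a palindromic 10-base motif that reads alike on both strands. All stretches lie before the start and outside annotated exons.
Cdkn1a (chr17:29090856-29090967, plus strand, upstream start): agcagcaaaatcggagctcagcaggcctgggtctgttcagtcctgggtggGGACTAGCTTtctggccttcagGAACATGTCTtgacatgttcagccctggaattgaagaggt
Mdm2 (chr10:117710910-117710969, minus strand): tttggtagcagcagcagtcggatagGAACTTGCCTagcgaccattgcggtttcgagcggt
Ccng1 (chr11:40755437-40755496, minus strand): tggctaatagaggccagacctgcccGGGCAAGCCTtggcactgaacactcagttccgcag
Ppm1d (chr11:85311097-85311156, plus strand): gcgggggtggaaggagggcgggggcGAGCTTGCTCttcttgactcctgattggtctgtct
Trp53 (chr11:69580259-69580318, plus strand): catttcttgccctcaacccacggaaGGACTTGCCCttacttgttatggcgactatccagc

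At least one half-site was found in 5 of the 9 members with a window, against 9.55% of all 27025 genes with a window. By window, the motif was in 5 of the 12 windows of the members and in 8.36% of all 32851 windows. The Cdkn1a window at its upstream start held 2 half-sites, beginning 73 and 51 bases before the start, within the spacing of up to 13 bases used to define a pair. Such a pair was present in 24 of all 32851 windows (0.0731%). The window of the downstream Cdkn1a start held no match, and neither did those of Mdm4, Phlda3, Psrc1 and Btg2. A match is a description of the letters, and binding was not measured. Only exact matches inside these windows were sought, so a site elsewhere or with a mismatch is not marked.

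Against unirradiated jejunum, 8 of the 10 members rose in FLASH, Trp53 fell and Mdm4 did not pass the test (edgeR quasi-likelihood test, adjusted p threshold 0.05 over all 16257 genes). Across all genes tested, 37.7% passed in this comparison, 16.7% higher and 21% lower. In CONV, 8 members rose, none fell, and Trp53 and Ppm1d did not pass, where 22.2% of all genes passed, 10.2% higher and 12.0% lower. Set directly against CONV, 4 members were lower in FLASH (Ccng1, Psrc1, Phlda3 and Mdm4), none was higher and 6 did not pass. The background there was 9.91% of genes lower and 9.88% higher, 19.8% in either direction. The median log2 fold change over the members was 1.40 in FLASH against control, 1.28 in CONV against control and -0.41 in FLASH against CONV, with medians over all genes of -0.070, -0.045 and -0.017. These comparisons share libraries and are not independent of each other. In bulk tissue, fewer cells of a type and less RNA per cell cannot be told apart.

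**Figure D1:**
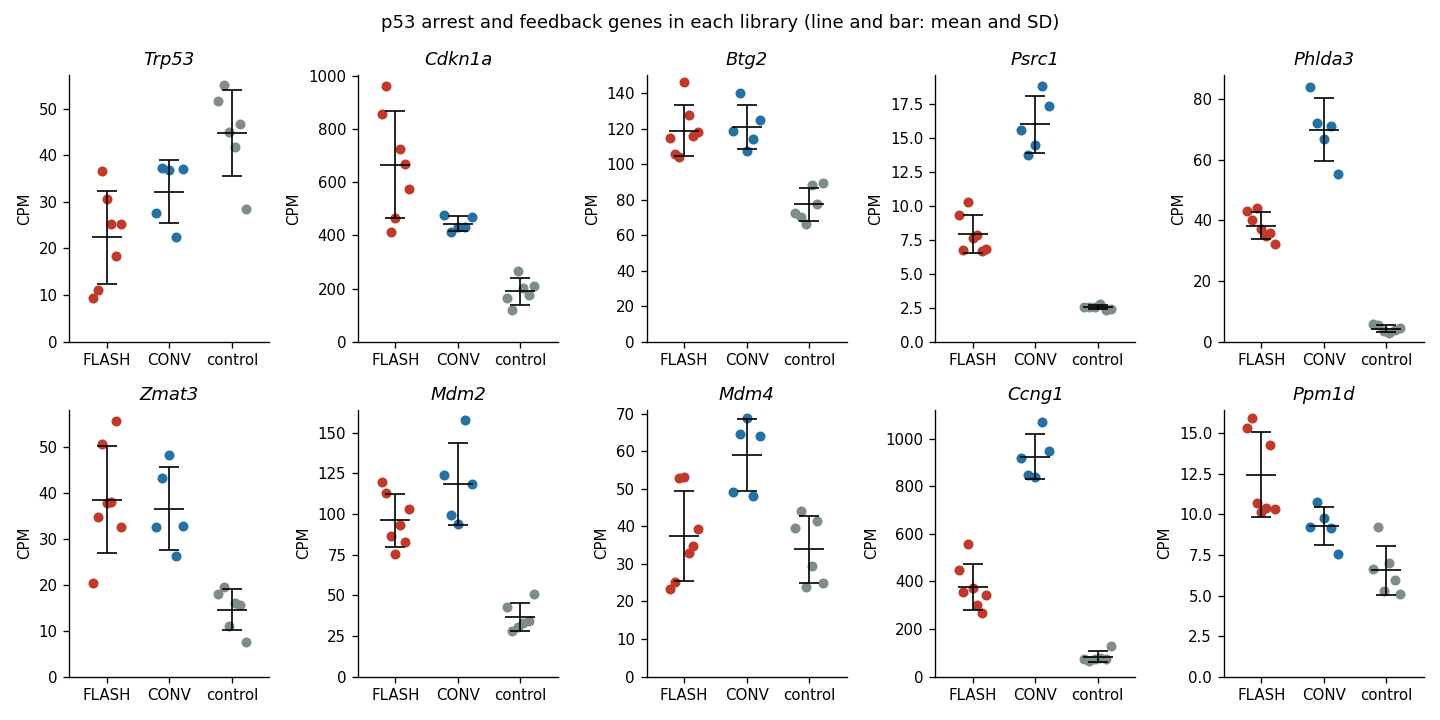
CPM of each of the 10 genes in every library (points), with the mean and SD of the FLASH (n = 7), CONV (n = 5) and control (n = 6) groups on linear axes that start at 0. Ccng1, Phlda3 and Psrc1 form 3 separate bands with CONV at the top, whereas Cdkn1a is spread from 415 to 962 CPM in FLASH and packed between 412 and 479 CPM in CONV.

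Trp53 (chromosome 11, 69580359 to 69591873, mm10), the gene of p53 itself, had a lowest, median and highest value of 9.47, 25.2 and 36.5 CPM in FLASH. The CONV libraries had 27.5, 37.2, 36.9, 22.4 and 37.0 CPM, and the controls had a lowest, median and highest value of 28.5, 45.8 and 55.0 CPM. Its mRNA fell by 1.0005 ± 0.26 on the log2 scale in FLASH against control (SE; edgeR adjusted p = 0.00605). The groups overlapped, because control 6 (28.5 CPM) lay below FLASH 4 and FLASH 5. FLASH 1 and FLASH 2, at 9.47 and 11.1 CPM, were the lowest of all 18 libraries, and without both the change was -0.69 (adjusted p = 0.0116). In CONV the log2 fold change of -0.47 ± 0.29 against control did not pass (adjusted p = 0.227). FLASH and CONV were not shown to differ in Trp53 (log2 fold change -0.53, unadjusted 95% interval -1.10 to 0.050, adjusted p = 0.185). Trp53 mRNA thus did not rise in either irradiated group.

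Cdkn1a (chromosome 17, 29090976 to 29100727), which encodes the cyclin-dependent kinase inhibitor p21, was the most abundant member in FLASH per kilobase of exon. FLASH libraries had a lowest, median and highest value of 415, 669 and 962 CPM, and CONV libraries had 479, 412, 431, 431 and 469 CPM. Controls had 118, 189.8 and 266 CPM as lowest, median and highest. Neither irradiated group overlapped the controls, and the rise was 1.81 ± 0.21 in FLASH (adjusted p = 4.28e-06) and 1.23 ± 0.22 in CONV (adjusted p = 0.000866), both as log2 fold changes from edgeR. FLASH exceeded CONV by 0.59 ± 0.21 on the log2 scale, but this missed the threshold (adjusted p = 0.0575; unadjusted 95% interval 0.14 to 1.03). The difference passed with DESeq2 (adjusted p = 0.0352), with a length and GC offset (0.0121), without FLASH 4 (0.0216) and without FLASH 5 (0.0364). FLASH 4 and FLASH 5 were the pair with the lowest Cdkn1a in the group. It did not pass in the other alternatives, among them the run without FLASH 1 and FLASH 2, the pair with the highest Cdkn1a. Leaving out single libraries gave log2 fold changes of 0.48 to 0.72 (adjusted p up to 0.119). The remaining alternatives gave 0.36 to 0.67 (adjusted p up to 0.214), and over all alternatives the adjusted p ran from 0.0121 to 0.214. FLASH libraries were also more unequal than CONV libraries, with a coefficient of variation of 29.98% in FLASH and 6.37% in CONV. In controls it was 26.1%, closer to FLASH than to CONV. An unconfirmed transcript (AC167363.2) overlaps Cdkn1a exons on the opposite strand, and whether counting used strand is not given in the sources used here.

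Btg2, an antiproliferative gene of the BTG/TOB family that recruits mRNA deadenylases, rose in both irradiated groups (chromosome 1, 134075170 to 134079120). It had a lowest, median and highest value of 104, 116 and 146 CPM in FLASH, values of 118, 140.3, 108, 114 and 125 CPM in CONV, and 66.1, 75.1 and 89.3 CPM as lowest, median and highest in controls. The log2 fold change was 0.62 ± 0.12 in FLASH (adjusted p = 0.000409) and 0.65 ± 0.12 in CONV (adjusted p = 0.00166), and neither group overlapped the controls. Scaled by library totals the FLASH value was 0.25 and did not pass (adjusted p = 0.0933). The FLASH-to-CONV difference was -0.024, with an unadjusted 95% interval of -0.28 to 0.23 (adjusted p = 0.912), and its sign was positive under 6 of the alternative settings.

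Psrc1, Phlda3 and Zmat3 are p53 targets with unlike products. Psrc1 (chromosome 3, 108383839 to 108388231) encodes a microtubule-associated protein of the mitotic spindle. It had a lowest, median and highest value of 6.68, 7.65 and 10.3 CPM in FLASH. CONV libraries had 15.6, 13.7, 14.5, 18.8 and 17.4 CPM, and controls had 2.32, 2.54 and 2.76 CPM as lowest, median and highest. The groups stood in 3 steps without overlap, 1.65 ± 0.14 above control in FLASH (adjusted p = 2.8e-07), 2.66 ± 0.15 above control in CONV (1.78e-09) and 1.02 ± 0.14 lower in FLASH than in CONV (0.000246), all on the log2 scale. It was the least variable member in controls, with a coefficient of variation of 5.70%.

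Phlda3 (chromosome 1, 135766119 to 135769136), a pleckstrin-homology protein gene whose product competes with AKT for membrane lipids, showed the same order of groups. It had a lowest, median and highest value of 32.2, 37.0 and 44.1 CPM in FLASH, values of 83.9, 72.2, 66.9, 71.2 and 55.3 CPM in CONV, and 2.98, 4.08 and 5.69 CPM as lowest, median and highest in controls. By fold it rose most of the 10 members in either comparison with control, 8.79-fold in FLASH (adjusted p = 8.25e-10) and 16.1-fold in CONV (6.57e-11). The lowest CONV library, at 55.3 CPM, still exceeded the highest FLASH library, and FLASH was lower than CONV by 0.87 ± 0.16 on the log2 scale (adjusted p = 0.00132).

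Zmat3 (chromosome 3, 32334792 to 32366014), a zinc-finger RNA-binding protein gene that acts in splicing and mRNA stability, rose in both irradiated groups. Its lowest, median and highest values were 20.4, 37.9 and 55.8 CPM in FLASH. CONV libraries had 32.5, 43.2, 48.4, 26.2 and 32.8 CPM, and controls had 7.63, 15.8 and 19.4 CPM as lowest, median and highest. It rose by 1.40 ± 0.24 in FLASH (adjusted p = 0.000207) and by 1.33 ± 0.25 in CONV (adjusted p = 0.00164) on the log2 scale, without overlap with the controls. The FLASH-to-CONV difference was 0.075, with an unadjusted 95% interval of -0.44 to 0.59 (adjusted p = 0.863).

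Among the genes that restrain p53, Mdm2 and Mdm4 behaved differently. Mdm2 (chromosome 10, 117688875 to 117710758), the ubiquitin ligase that targets p53, had a lowest, median and highest value of 75.5, 93.1 and 119.8 CPM in FLASH. CONV libraries had 124, 99.2, 93.7, 158 and 119 CPM, and controls had 28.0, 33.3 and 50.9 CPM as lowest, median and highest. The rise was 2.63-fold in FLASH (adjusted p = 7.39e-06) and 3.24-fold in CONV (adjusted p = 7.11e-06), and all irradiated libraries lay above all controls. FLASH and CONV overlapped, and the log2 fold change of -0.30 ± 0.17 between them did not pass (adjusted p = 0.225; -0.45 and 0.0313 when scaled by library totals).

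Mdm4 (chromosome 1, 132959484 to 133030561), the MDM2 relative that masks the activation domain of p53, rose in CONV, did not pass the test in FLASH, and was lower in FLASH than in CONV. Its lowest, median and highest values were 23.3, 34.8 and 53.1 CPM in FLASH. CONV libraries had 49.3, 64.7, 68.8, 48.2 and 64.1 CPM, and controls had 23.9, 34.6 and 44.0 CPM as lowest, median and highest. FLASH overlapped the controls (log2 fold change 0.14 ± 0.21, adjusted p = 0.627; -0.24 when scaled by library totals). All CONV libraries lay above the controls (0.80 ± 0.23, adjusted p = 0.0183; 0.105 when scaled by library totals). The log2 fold change of FLASH against CONV was -0.66 ± 0.22 (adjusted p = 0.039). FLASH 4 and FLASH 5 lay inside the CONV range. That call was narrow. It was lost without CONV 3, CONV 5, CONV 7, FLASH 1, FLASH 2, FLASH 6, FLASH 7 or FLASH 9 (log2 fold changes -0.57 to -0.67, adjusted p 0.0543 to 0.0856), without FLASH 1 and FLASH 2 together (-0.46, 0.0964) and when every gene with at least 1 count was kept (0.0617). With the length and GC offset it was -0.89 (adjusted p = 0.00118).

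Ccng1 (chromosome 11, 40748552 to 40755311), which encodes cyclin G1, a partner of the phosphatase PP2A that acts on MDM2, gave the largest log2 difference between the dose rates among the 10 members. It had a lowest, median and highest value of 269, 356 and 556 CPM in FLASH. CONV libraries had 917, 848, 838, 1071 and 947 CPM, and controls had 65.4, 74.4 and 130.0 CPM as lowest, median and highest. No pair of groups overlapped. The rise was 4.56-fold in FLASH (adjusted p = 3.05e-07) and 11.2-fold in CONV (3.27e-09), and FLASH was lower than CONV by 1.29 ± 0.19 on the log2 scale (0.000364).

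Ppm1d (chromosome 11, 85311244 to 85347066), which encodes the phosphatase WIP1 that removes activating phosphates from p53 and its kinases, was among the least abundant members. Its lowest, median and highest values were 10.2, 10.7 and 15.9 CPM in FLASH. CONV libraries had 9.22, 10.8, 9.75, 9.16 and 7.59 CPM, and controls had 5.11, 6.32 and 9.23 CPM as lowest, median and highest. FLASH did not overlap the controls (log2 fold change 0.93 ± 0.17, adjusted p = 0.000374). CONV did, and its difference of 0.51 ± 0.18 from control just missed the threshold (adjusted p = 0.053). It passed with DESeq2 size factors (0.0458), DESeq2 (0.0299), limma-trend on the authors' deposited log2 values (0.0457), without control 2 (0.0269) and without CONV 7 (0.0477), with adjusted p from 0.0269 to 0.301 over all alternatives. FLASH and CONV were not shown to differ (0.42, unadjusted 95% interval 0.048 to 0.79, adjusted p = 0.102).

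**Figure D2:**
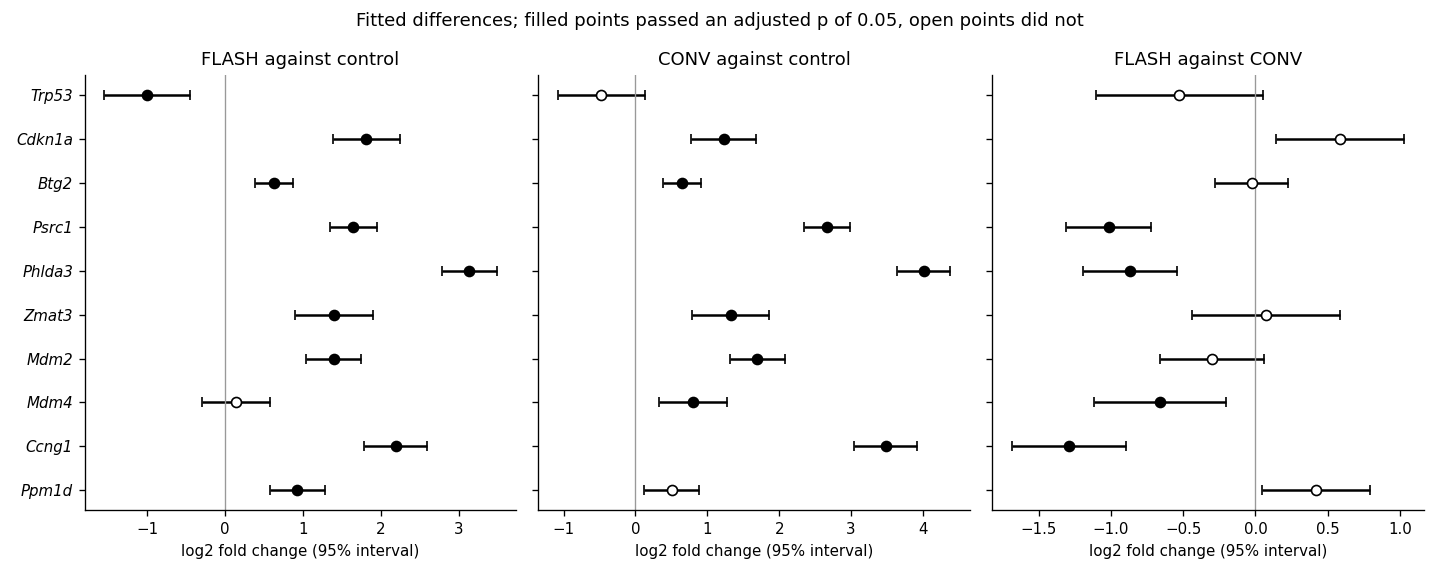
Fitted log2 fold changes of the 10 genes with unadjusted 95% intervals, for FLASH against control, CONV against control and FLASH against CONV, with filled points for an adjusted p under 0.05. In the third panel Ccng1 (-1.29), Psrc1 (-1.02), Phlda3 (-0.87) and Mdm4 (-0.66) lie left of 0 and Cdkn1a (0.59) and Ppm1d (0.42) lie right of it with open points.

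Of the 10 members, 8 showed no overlap between FLASH and control libraries and 8 showed none between CONV and control libraries, where 13.8% and 10.4% of all genes tested did so. Between FLASH and CONV, 3 members did not overlap (Ccng1, Psrc1 and Phlda3), against 8.53% of all genes. These 3 calls held in every alternative run, with log2 fold changes from -1.45 to -1.13 for Ccng1, -1.17 to -0.87 for Psrc1 and -1.03 to -0.75 for Phlda3. Their adjusted p stayed at or below 0.0162. The alternatives included the length and GC offset, which gave -1.13, -0.87 and -0.75, each the smallest of its range.

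**Figure D3:**
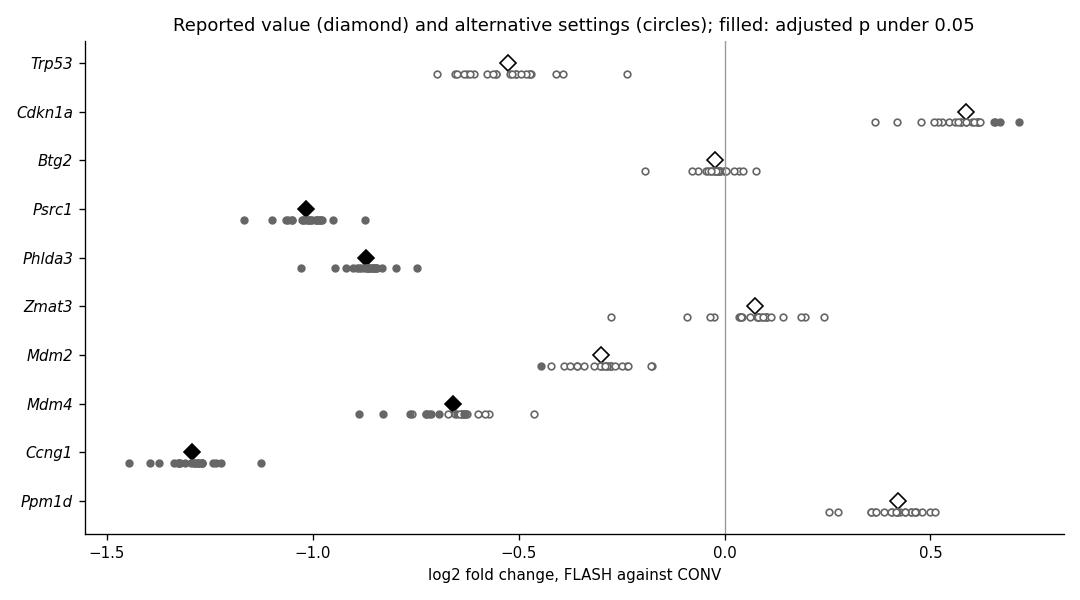
Log2 fold change of each gene in FLASH against CONV as reported (diamonds) and under each alternative setting (circles), filled where the adjusted p was under 0.05. Ccng1, Psrc1 and Phlda3 are filled throughout, Mdm4 is filled in part, and Btg2 and Zmat3 scatter on both sides of 0.

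Per kilobase of merged exon, which puts genes of unlike length on one scale, the order of the members changed with irradiation. Merged exons can be longer than any single transcript, as for Mdm4 with 14798 bases against 7105 in its longest transcript. The order between genes can therefore depend on the length chosen. In FLASH, Cdkn1a led at 188 ± 56.3 CPM per kb (SD), followed by Ccng1 at 107 ± 27.6, Btg2 at 43.4 ± 5.29, Phlda3 at 24.5 ± 2.83 and Mdm2 at 18.9 ± 3.20. In CONV, Ccng1 led at 263 ± 26.8 CPM per kb, followed by Cdkn1a at 125 ± 7.96, Phlda3 at 44.8 ± 6.63, Btg2 at 44.1 ± 4.55 and Mdm2 at 23.3 ± 4.97. In controls, Cdkn1a led at 53.4 ± 14.0 CPM per kb, with Btg2 at 28.2 ± 3.48, Ccng1 at 23.5 ± 6.72, Trp53 at 11.1 ± 2.28 and Mdm2 at 7.19 ± 1.71. The neighbours Phlda3 and Btg2 in CONV differed by less than either SD. Btg2 and Ccng1 in controls differed by more than the SD of Btg2 and by less than that of Ccng1. Trp53 itself was at 5.53 ± 2.46 in FLASH and 7.96 ± 1.69 in CONV, while Mdm4, Ppm1d, Zmat3 and Psrc1 stayed between 0.75 and 4.76 CPM per kb in all groups. The 10 members together held 0.109 to 0.147% of estimated counts in FLASH, 0.166 to 0.196% in CONV and 0.0521 to 0.0594% in controls.

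Ratios within a library do not depend on its scaling factor and are given as descriptions, since the pairs were chosen after their values were seen. The Cdkn1a-to-Phlda3 ratio of CPM had a lowest, median and highest value of 9.40, 18.7 and 24.0 in FLASH. It was 5.70, 5.70, 6.43, 6.06 and 8.49 in CONV, and 20.97, 47.3 and 74.3 as lowest, median and highest in controls. Every FLASH library thus had more Cdkn1a per Phlda3 than every CONV library. For Cdkn1a over Mdm2 the range was 4.79 to 8.52 in FLASH, 2.73 to 4.59 in CONV and 3.85 to 8.66 in controls, again with no overlap between FLASH and CONV. The Mdm2-to-Mdm4 ratio ran from 1.42 to 5.14 in FLASH, from 1.36 to 3.27 in CONV and from 0.636 to 2.05 in controls, and overlapped between all groups.

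**Figure D4:**
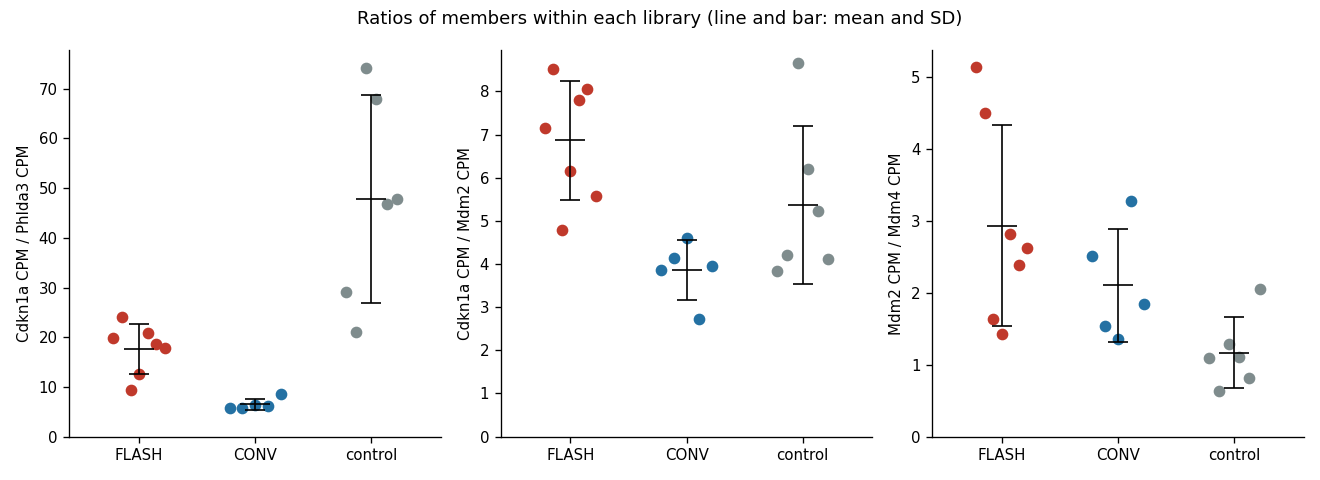
Ratios of CPM within each library (points) for Cdkn1a to Phlda3, Cdkn1a to Mdm2 and Mdm2 to Mdm4, with mean and SD in FLASH (n = 7), CONV (n = 5) and control (n = 6), on linear axes from 0. The 2 Cdkn1a ratios separate all FLASH libraries from all CONV libraries, and the Mdm2 to Mdm4 ratio does not.

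Within FLASH the libraries did not move alike. FLASH 1 and FLASH 2 combined the lowest Trp53 (9.47 and 11.1 CPM) and Mdm4 (23.3 and 25.1 CPM) of the group with the highest Cdkn1a (857 and 962 CPM), Mdm2 (119.8 and 113 CPM) and Ppm1d (15.3 and 15.9 CPM). FLASH 4 and FLASH 5 had the highest Trp53 (36.5 and 30.7 CPM) and the lowest Cdkn1a (415 and 465 CPM). Phlda3 and Btg2 varied less, with coefficients of variation of 11.6% and 12.2% in FLASH, and the shared direction across members was not tested. Control 6 had the highest Mdm2 (50.9 CPM) and Ccng1 (130.0 CPM) and the lowest Trp53 (28.5 CPM) and Zmat3 (7.63 CPM) of the controls, and CONV 6 the highest Mdm2, Ccng1 and Psrc1 and the lowest Trp53, Mdm4 and Zmat3 of its group. FLASH 1, CONV 6 and control 6 are also the libraries with the lowest length slopes. Without all 3 of them, the same numbers of members passed, 9 in FLASH against control, 8 in CONV against control and 4 in FLASH against CONV. The share of all genes called in that run is not given here, and these counts are not a test of the length slope.

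**Figure D5:**
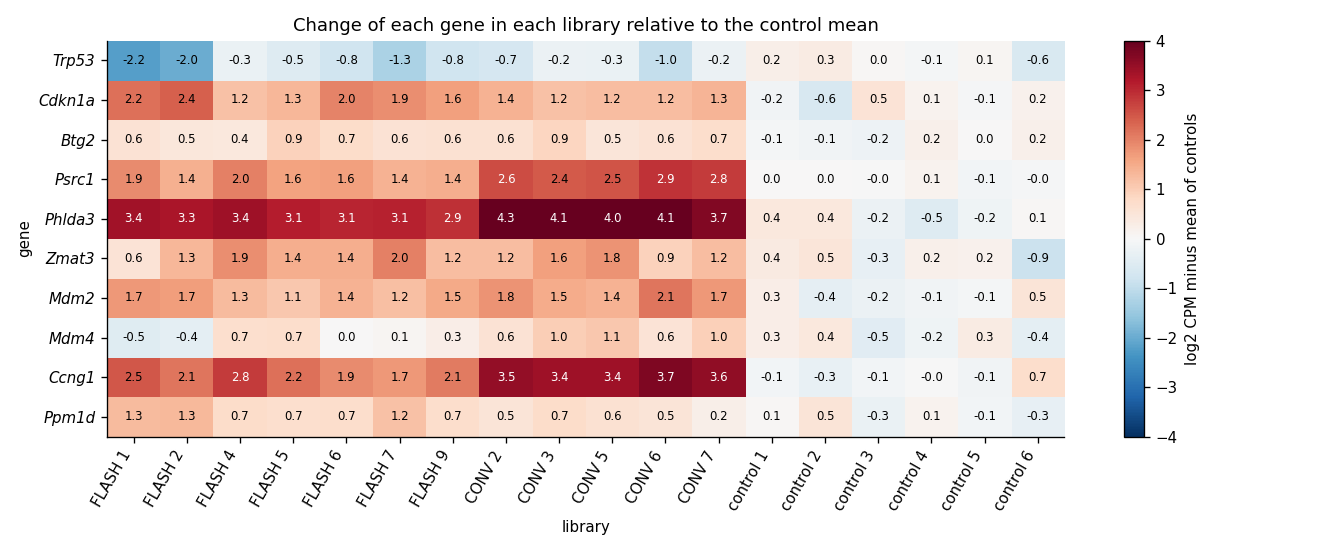
Log2 CPM of each gene (rows) minus its mean over the 6 controls, in every library (columns, FLASH then CONV then control). Phlda3 and Ccng1 are deepest in the 5 CONV columns, and the Trp53 row is bluest in FLASH 1 (-2.2) and FLASH 2 (-2.0).

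Other genes of the pathway are given by lists chosen with earlier results of these data known. Whether each gene listed as a p53 target is one in this tissue was not tested. Each list's counts are to be read against the shares of all genes tested, which were 16.7% higher and 21% lower in FLASH against control, 10.2% and 12.0% in CONV against control, and 9.88% and 9.91% in FLASH against CONV. Of 14 genes listed as p53 targets linked to apoptosis, 11 rose and 1 (Bid) fell in FLASH against control, and 9 rose and none fell in CONV against control. The median log2 fold changes were 1.27 in FLASH and 1.33 in CONV. Between the irradiated groups, 4 of the 14 were lower in FLASH than in CONV and 1 was higher (median -0.43; medians over all genes as given above). Eda2r, a gene of the TNF receptor family, rose by 3.77 ± 0.24 in FLASH (adjusted p = 9.53e-09) and by 4.69 ± 0.25 in CONV and was lower in FLASH than in CONV by 0.92 ± 0.21 (adjusted p = 0.00588). The BH3-only genes Bbc3 and Pmaip1, which trigger mitochondrial apoptosis, went in opposite directions between the dose rates. Bbc3 was lower in FLASH than in CONV by 0.57 ± 0.17 (adjusted p = 0.0241), whereas Pmaip1 was higher by 2.07 ± 0.47 (adjusted p = 0.0055), with 341 ± 277 CPM in FLASH and 81.1 ± 7.80 CPM in CONV (SD). The receptor gene Tnfrsf10b was lower in FLASH than in CONV by 0.61 ± 0.18 (adjusted p = 0.0264). Against control in FLASH, Bax rose by 1.76 ± 0.19, the nuclease gene Aen by 1.60 ± 0.13 and Trp53inp1 by 1.66 ± 0.18.

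Of 19 genes listed as p53 targets of repair, stress and metabolism, 9 rose and 4 fell in FLASH against control. In CONV against control 7 rose and 2 fell, and 4 were higher and 5 lower in FLASH than in CONV. The list's median log2 fold changes were 0.30, 0.51 and -0.28 in these comparisons. The 4 of 19 that fell in FLASH were close to the 21% of all genes that did so. The genes higher in FLASH than in CONV included Ddit4, an inhibitor of mTORC1, by 2.21 ± 0.52 (adjusted p = 0.00676), and Sesn1, a sestrin gene of the stress response, by 1.45 ± 0.35 (adjusted p = 0.00802). FLASH libraries were far apart in both. Ddit4 had 161 ± 145 CPM in FLASH and 34.8 ± 6.39 CPM in CONV (SD). Sesn1 had 328 ± 196 CPM in FLASH and 120 ± 20.7 CPM in CONV. Genes lower in FLASH than in CONV included Fdxr, a mitochondrial reductase gene, by 1.25 ± 0.29 (adjusted p = 0.00709) and the small GTPase gene Rap2b by 0.54 ± 0.12 (adjusted p = 0.00521). In FLASH against control the stress cytokine gene Gdf15 rose by 4.07 ± 0.34, the kinase gene Plk2 by 2.23 ± 0.22, Sesn2 by 2.09 ± 0.17 and the repair nuclease gene Ercc5 by 1.09 ± 0.16.

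Of 18 regulators of p53, 17 were tested, with median log2 fold changes of -0.017 in FLASH against control, -0.33 in CONV against control and -0.033 in FLASH against CONV. In FLASH against control 6 fell (Atm, Atr, Chek1, Chek2, Trp53bp1 and Prkdc) and 1 rose (Rchy1, a ubiquitin ligase for p53), so that 7 of 17 passed where 37.7% of all genes did. In CONV against control 1 fell (Atr) and 1 rose (Rchy1), where 22.2% of all genes passed. The kinase gene Prkdc fell by 1.59 ± 0.32, Trp53bp1 by 1.15 ± 0.28 and Atr by 1.10 ± 0.21 on the log2 scale in FLASH. Directly compared, FLASH was lower than CONV in the checkpoint kinase gene Chek2 by 1.07 ± 0.23 (adjusted p = 0.00433) and in the ligase gene Cop1 by 0.51 ± 0.13 (adjusted p = 0.00895), and 15 of the 17 did not pass, where 19.8% of all genes passed. Chek1 and Crebbp, at -0.72 ± 0.27 and 1.01 ± 0.39, were among those 15 (adjusted p = 0.0706 and 0.0761).

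Relatives of the members by family were tested in 17 of 20 cases. Of these, 7 rose and 1 fell in FLASH against control, 3 rose in CONV against control, and 2 were higher and 2 lower in FLASH than in CONV, with medians of 0.24, 0.053 and -0.043. The 3 of 17 called in CONV against control and the 4 of 17 called in FLASH against CONV were near the 22.2% and 19.8% of all genes called there. Tob2, of the same antiproliferative family as Btg2, was higher in FLASH than in CONV by 1.29 ± 0.19 (adjusted p = 0.000426) and Btg3 by 1.51 ± 0.47 (adjusted p = 0.0304), whereas Zmat5 was lower by 0.70 ± 0.23 (0.037) and Ppm1e by 1.49 ± 0.43 (0.0217). Btg3 was spread widely in FLASH, at 11.5 ± 9.51 CPM, against 4.02 ± 1.01 CPM in CONV (SD). Against control in FLASH, Tob2 rose by 1.10 ± 0.18, Btg1 by 0.95 ± 0.18, Tob1 by 0.86 ± 0.13 and the CDK inhibitor gene Cdkn1c by 0.87 ± 0.22.

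Of 20 cell cycle genes known to be repressed by p21 through RB and the DREAM complex, 15 fell and none rose in FLASH against control, and 9 fell and 1 rose in CONV against control. FLASH was lower than CONV in 6 of the 20 and higher in none, and the other 14 did not pass. The medians were -0.94, -0.66 and -0.23. The riser in CONV was Ccne2, the cyclin E2 gene of S phase entry, by 1.50 ± 0.26 on the log2 scale, and it was lower in FLASH than in CONV by 1.82 ± 0.25 (adjusted p = 0.000203), at 9.75 CPM in FLASH and 34.4 CPM in CONV. Also lower in FLASH than in CONV were the transcription factor gene E2f1 by 1.39 ± 0.29 (adjusted p = 0.00316), the helicase subunit gene Mcm5 by 0.74 ± 0.20 (0.0136) and the mitotic kinase gene Aurka by 0.71 ± 0.18 (0.0103). E2f2 fell by 1.84 ± 0.23 and Ccna2 by 0.90 ± 0.14 in FLASH against control.

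Markers of several cell types moved with the groups, and their part in the members' values was not tested. The summed level of 10 crypt base stem cell markers ran from 168 to 273 CPM in FLASH, from 141 to 316 CPM in CONV and from 875 to 1456 CPM in controls. Although these sums overlapped between FLASH and CONV, 4 of the 10 were lower in FLASH than in CONV by the gene test and none was higher, namely Ascl2 (log2 fold change -1.89, adjusted p = 0.00433), Cdca7 (-0.79, 0.00257), Myb (-0.74, 0.0314) and Smoc2 (-0.59, 0.046). For 12 enterocyte markers the sums were 66504 to 107756 CPM in FLASH, 59999 to 105582 CPM in CONV and 21604 to 44184 CPM in controls. By the gene test, 8 of the 12 rose in FLASH against control and 6 in CONV against control, and none fell. Apob, Lct, Vil1 and Anpep passed in neither comparison. Between the irradiated groups, 2 of the 12 were higher and 1 was lower in FLASH. Abundant genes weigh most in these sums, such as Apoa4, with means of 31786 CPM in FLASH, 23636.5 CPM in CONV and 5110 CPM in controls. For 8 smooth muscle markers the sums were 370.2 to 1182 CPM in FLASH, 159 to 1112 CPM in CONV and 1136 to 3468 CPM in controls. The 8 Paneth cell markers summed to 4432 to 12766 CPM in FLASH, 11590 to 20183 CPM in CONV and 14846 to 20209 CPM in controls. By the gene test, 6 of the 8 were lower in FLASH than in CONV. In CONV against control, 1 of the 8 rose (Mmp7, log2 fold change 0.58, adjusted p = 0.0391) and none fell. The 8 markers of B and plasma cells summed to 907 to 2216 CPM in FLASH, 758 to 2069 CPM in CONV and 4943 to 10219 CPM in controls, and the 8 of T cells to 38.4 to 85.5 CPM in FLASH, 31.6 to 77.3 CPM in CONV and 85.1 to 162 CPM in controls. Sums of the goblet cell, fibroblast, endothelium and macrophage markers overlapped between all groups, although some genes of each list passed the gene test against control.

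Genes with the most similar profile were sought by the root-mean-square difference in log2 CPM over the 18 libraries, each gene centred on its control mean. The search covered genes with a mean of at least 5 CPM. Genes without a symbol, or named only by a predicted model or clone number, were left out and could be closer. Closest to Cdkn1a were Rab4a (0.32), Tmem41a (0.32) and Cdc42se2 (0.34), none of them a member. Closest to Phlda3 were Ddit4l (0.47), Eda2r (0.60) and the member Ccng1 (0.73). Closest to Mdm2 were Tcim (0.20), Rev1 (0.27) and Mrps6 (0.28). Between members, Btg2 and Ppm1d were nearest to each other at 0.38 and Trp53 and Phlda3 farthest apart at 3.60.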

How the data were processed

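RNA of whole jejunum was sequenced as stranded mRNA libraries with single-end reads, per the labels' protocols. Per the submitters' processing notes, the authors used STAR and Salmon on mm10, and edgeR 3.40.2 and limma 3.54.2. The deposited table of expected counts (estimated, unscaled read counts per gene) covered 54532 genes, 54409 of them with a symbol, and was rounded. The authors' deposited log2 values (19193 genes) matched log2 CPM of these counts within 0.01 up to 1 offset per library (10762 genes with a mean over 100 counts) and served in an alternative test only.

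The test was edgeR 4.0.16 (R 4.3.3; quasi-likelihood, robust, filterByExpr, TMM) on all 18 libraries, with Benjamini-Hochberg adjustment over 16257 genes and a threshold of 0.05. Standard errors were derived from each log2 fold change and its F statistic. Intervals are unadjusted. The script was tested on simulated data. Alternatives used DESeq2 1.42.0, limma 3.58.1, other scalings, filters and sets of libraries. A length and GC offset (spline with 4 degrees of freedom on genes over 3 log2 CPM) and leaving out FLASH 1 and FLASH 2 were added after the data were seen. No libraries were duplicates (lowest chi-square per degree of freedom 25.3).

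All members and, per pathway list, up to 4 genes with the smallest p in FLASH against CONV and in FLASH against control were named, other members of short counts being named after their values were seen. Members and lists were chosen with earlier results of these data known. Figures used matplotlib 3.10.9.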

Additional observations from a re-analysis of the deposited data

Results flagged for a closer look

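Ccng1 in control 6, at 130.0 CPM, stood apart from the other controls, of which the next had 79.2 CPM. The gap was 0.786 of the group's range, above the 95% critical value of Dixon's test for 6 samples. Of the 30 combinations of member and group tested in this way, about 1 in 20 is flagged by chance. Without control 6, Ccng1 was higher by 2.36 in FLASH and by 3.66 in CONV on the log2 scale.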

How the results depend on the processing

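Of the 680 recomputed fold changes of members, 645 kept their direction and side of the threshold, 14 lost and 10 gained a call and 11 changed sign, none of them from a value that had passed. Leaving out single libraries gave 9 members called in FLASH against control each time, 8 to 9 in CONV against control and 3 to 5 in FLASH against CONV. Over all genes it gave 5074 to 7164, 1869 to 6493 and 2171 to 3680 calls, where the full set gave 6135, 3615 and 3217, with the extremes in CONV against control without CONV 6 and without control 6, and 2277, 2359 and 2171 without control 2, control 5 and CONV 2. The sign changes concerned Btg2 in FLASH against CONV (0.00035 with DESeq2 size factors, 0.076 with the length and GC offset, 0.022 without FLASH 1 and FLASH 2, and -0.080 to 0.044 over single libraries left out, positive without CONV 3, FLASH 2 or FLASH 4), Zmat3 in the same comparison (-0.090 with library totals, -0.28 with the offset, and -0.035 to 0.19 over single libraries left out, negative without CONV 6 or FLASH 7), and Mdm4 in FLASH against control (-0.24 with library totals). The cause was not tested. Library totals shifted the median of all genes to -0.44, -0.25 and -0.18 in the comparisons as ordered above, and the share of calls that were higher to 17.4, 24.2 and 24.4%, against 44.3, 46.0 and 49.9% with TMM. The data do not show that replicate numbers pair the libraries. Deviations of same-numbered libraries of different groups correlated between -0.21 and 0.51 (median -0.058). Those of differently numbered libraries correlated between -0.52 and 0.42 (median 0.0085). With replicate number as a block, 1569 genes and 3 members passed in FLASH against CONV, 9 members in FLASH against control and 7 in CONV against control, and the calls that missed the threshold were those of Mdm4 (adjusted p = 0.0792 in FLASH against CONV and 0.0515 in CONV against control). The share of all genes called with the block is not given here for the comparisons with control.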
